A study of Mus musculus with 10 samples.

Results

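The teneurins are 4 large transmembrane proteins of the cell surface, encoded in the mouse by Tenm1, Tenm2, Tenm3 and Tenm4. Their binding partners are the latrophilins, adhesion G protein-coupled receptors encoded by Adgrl1, Adgrl2 and Adgrl3, and the latrophilins also bind the leucine-rich repeat proteins Flrt1, Flrt2 and Flrt3. These 10 genes were taken from the gene count table by their symbols, out of 21849 genes in all. The family was picked because Tenm3 was already known to stand near the top of the genes lower on the arginine-deficient diet, so its diet difference is described here and supports nothing.

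Teneurins act as dimers whose large extracellular part reaches across to a latrophilin on a neighbouring cell, and they are best known from the matching of nerve cells and the building of synapses. FLRT proteins bind latrophilins across the gap between cells, and they also bind the UNC5 receptors, which guide growing axons. Outside the nervous system teneurins and FLRT proteins are known from embryonic mesenchyme and connective tissue.

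CT26 cells, an established mouse colon carcinoma line, were implanted subcutaneously in BALB/c mice that ate either a diet without arginine or a normal diet of equal calories. Diets began at 5 weeks of age, 1 week before implantation, and tumour tissue was taken on day 20. The arginine-deficient diet has 5 libraries of total RNA and the normal diet 5, and the labels do not give the sex of the mice. Nor do they say that each library is from a separate mouse, so p-values measure the spread between these samples, which may be technical. Each library is called a tumour below for short. The libraries hold 12013178 to 31530123 counts, and levels are given as CPM, the counts of a gene scaled to a common library total with TMM factors.

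The libraries held unequal amounts of other tissue. A list of 10 skeletal muscle markers reached 5901 CPM in replicate 3 and 1516 CPM in replicate 4 of the arginine-deficient diet, and 530 CPM in replicate 4 of the normal diet, against at most 64.8 CPM elsewhere. The first of these libraries also had the highest mitochondrial share of counts, 9.97%, against 1.67% to 4.44% elsewhere. The 6 epithelial markers, which include Epcam and Krt8, summed to only 8.37 to 20.1 CPM on the deficient diet and 10.8 to 24.7 CPM on the normal diet. In whole tumours, fewer cells of a type and less RNA per cell cannot be told apart.

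The count table itself limits what can be said of a pair of these genes. Flrt1 and Flrt3 were listed at 0 in all 10 libraries. Flrt1 lies on chromosome 19 at 7092001 to 7105729 inside the body of Macrod1, and Flrt3 on chromosome 2 at 140650914 to 140671469 inside the body of Macrod2, so that 100% of their exonic bases lie within another counted gene. Of 459 protein-coding genes placed like this, inside another counted gene and in none of its exons, 456 (99.3%) were at 0 in every library. Among the 17307 protein-coding genes clear of other counted bodies, 3064 (17.7%) were at 0. The zeros of Flrt1 and Flrt3 are therefore not read as a level. The same pattern means that reads from introns may be part of the counts of the other 8 genes.

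Of the 10 genes, 6 had enough counts for the test across 12929 genes: Tenm3, Tenm4, Adgrl1, Adgrl2, Adgrl3 and Flrt2. Tenm1 and Tenm2 had counts but too few to be tested. With edgeR's quasi-likelihood test and Benjamini-Hochberg adjustment over all genes, 0 of the 6 were called, against 7 genes or 0.0541% of all those tested, each of the 7 higher on the deficient diet. At an unadjusted p under 0.05 there were 2 of the 6, Tenm3 and Tenm4, against 6.74% of all genes. Nothing is read from this count, because the family was picked on the contrast of Tenm3. The median log2 fold change of the 6 was -0.07, against 0.00 over all genes. The number called over all genes moved with single libraries. On the deficient side, leaving out replicate 1, 2 or 5 gave 2 and leaving out replicate 3 gave 16. On the normal side, leaving out replicate 1 or 3 gave 0, replicate 2 gave 2 and replicate 5 gave 15.

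Tenm3 (ENSMUSG00000031561.16) spans 48227682 to 48843951 of chromosome 8 on the minus strand of mm10, a body of 616 kb with 10.2 kb of exons. Its level was 87.8, 74.9, 74.4, 90.7 and 89.8 CPM in arginine-deficient replicates 1 to 5, and 119, 128, 138, 131 and 117 CPM in normal-diet replicates 1 to 5. Every tumour of the deficient diet lay below every tumour of the normal diet. Such a separation in that direction was seen in 0.812% of all tested genes, and in either direction in 1.65%, shares from which nothing is read here because the family was picked on this contrast. The mean was 83.5 ± 8.15 CPM on the deficient diet and 126 ± 8.83 CPM on the normal diet (n = 5 each, ± SD). The log2 fold change was -0.60 (SE 0.10), so that the level on the deficient diet was 0.660 of that on the normal diet. The adjusted p over all genes was 0.0699 by edgeR, above the threshold of 0.05.

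Tenm4 (ENSMUSG00000048078.16), which spans 96171246 to 96911093 of chromosome 7 on the plus strand, differed the other way. Its level was 99.7, 107, 59.7, 77.5 and 94.0 CPM in arginine-deficient replicates 1 to 5, and 29.5, 44.9, 49.1, 43.7 and 60.9 CPM in normal-diet replicates 1 to 5. The diets met at a single point, since replicate 3 of the deficient diet, which held most muscle RNA, lay just below replicate 5 of the normal diet. The mean was 87.7 ± 19.1 CPM on the deficient diet and 45.6 ± 11.3 CPM on the normal diet (n = 5 each, ± SD). The log2 fold change was 0.94 (SE 0.20), a 1.92-fold higher level, with an adjusted p over all genes of 0.174 by edgeR. Of the exonic bases of Tenm4, 26.8% lie inside bodies of other annotated genes, none of which has a row in the table.

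Whether this pair passes a threshold turned on the model. DESeq2 called both, with an adjusted p of 8.95e-06 for Tenm3 and 0.00396 for Tenm4. It called 127 of the 14135 genes to which it gave an adjusted p, or 0.898%, with 0.481% higher and 0.417% lower. By limma voom with sample weights the adjusted p was 0.00305 for Tenm3 and 0.00388 for Tenm4, with 373 genes or 2.88% of all called, 1.59% higher and 1.3% lower. With the GC and gene length trends of each library as covariates, the adjusted p in edgeR was 0.00825 for Tenm3 and 0.0471 for Tenm4, with 68 genes or 0.526% called, 0.271% higher and 0.255% lower. In each of these fits the log2 fold change of Tenm3 stayed between -0.62 and -0.58 and that of Tenm4 between 0.94 and 1.01. With replicate 3 of the deficient diet left out, Tenm3 had a log2 fold change of -0.56 (edgeR adjusted p of 0.0557) and Tenm4 one of 1.06 (edgeR adjusted p of 0.0548), the lowest adjusted p among the 10 fits that leave out 1 library. Over those 10 fits the edgeR adjusted p ran up to 0.290 for Tenm3 and 0.484 for Tenm4, and neither passed in any of them.

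**Figure D1:**
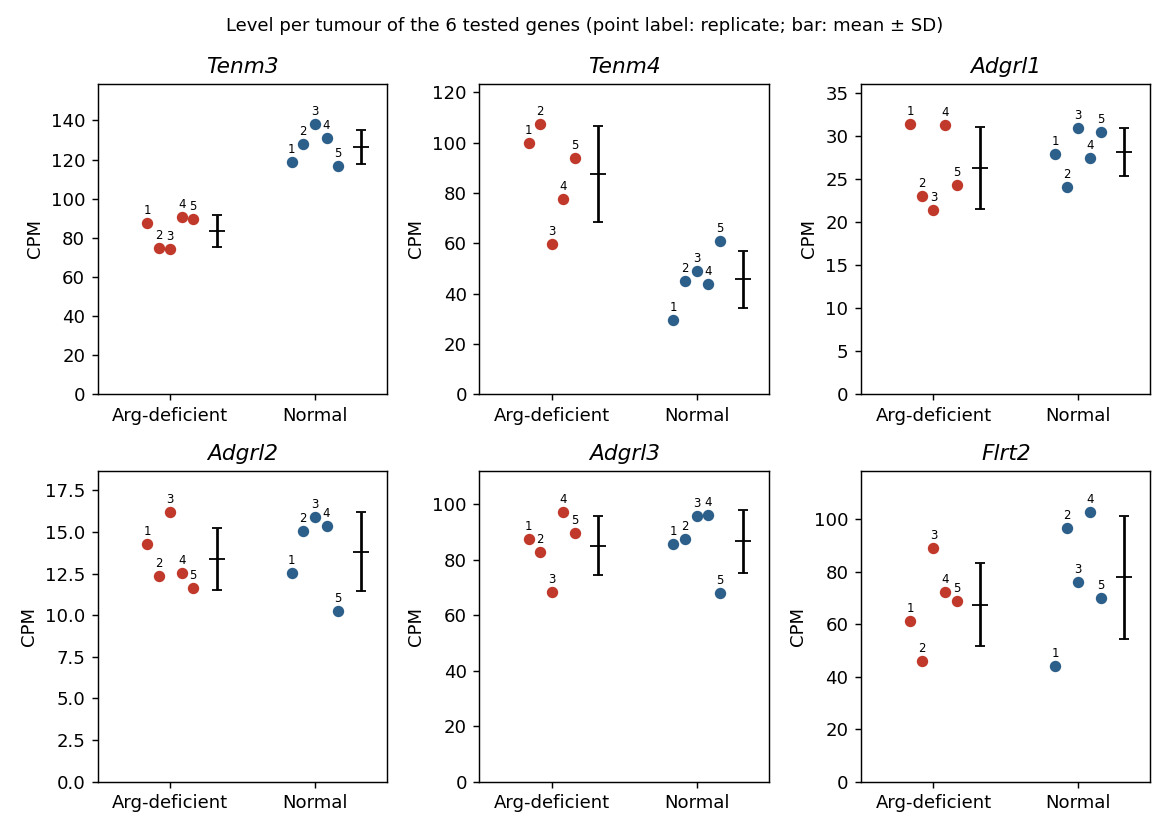
Level of the 6 tested genes in CPM (vertical axes, from 0), 1 point per tumour labelled with its replicate number, arginine-deficient diet on the left and normal diet on the right of each panel, with mean ± SD (n = 5). Tenm3 separates the diets completely, from 74.4 to 90.7 CPM on the deficient diet and from 117 to 138 CPM on the normal diet, while the 3 latrophilins and Flrt2 overlap throughout.

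The balance between these teneurins needs no scaling between libraries, because both counts come from the same library. Counts of Tenm3 per count of Tenm4 were 0.880, 0.698, 1.25, 1.17 and 0.955 in arginine-deficient replicates 1 to 5, and 4.02, 2.85, 2.81, 2.99 and 1.92 in normal-diet replicates 1 to 5. The lowest normal-diet tumour thus stood above the highest tumour of the deficient diet. The mean ratio was 0.990 ± 0.222 on the deficient diet and 2.92 ± 0.746 on the normal diet (n = 5 each, ± SD). Which of the pair had the higher level depends on the length used, because intronic reads may be counted. Divided by exonic length, the Tenm3 level was 1.43 to 2.56 times that of Tenm4 on the deficient diet and 3.94 to 8.25 times on the normal diet. Divided by the length of the gene body, the same ratio was 0.838 to 1.497 on the deficient diet, below 1 in replicate 2, and 2.30 to 4.82 on the normal diet. The diets stayed apart on either scale, since a length changes every tumour alike. The ratio is given as a description, with no test. Nothing is read from its separation of the diets, because the family was picked on Tenm3 and Tenm4 differed the other way.

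**Figure D2:**
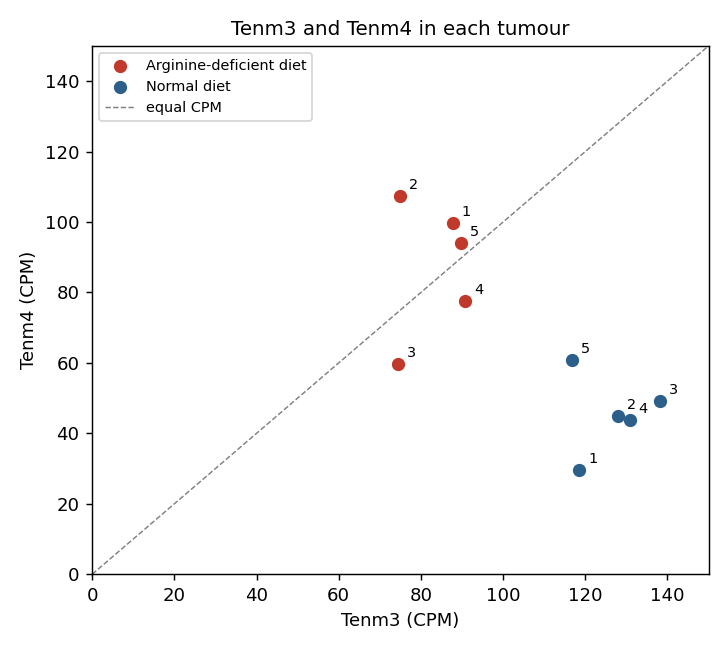
Tenm3 (horizontal axis, CPM) against Tenm4 (vertical axis, CPM), 1 point per tumour labelled with its replicate number; the dashed line marks equal CPM. The 5 tumours of the arginine-deficient diet lie on both sides of the line of equal CPM and the 5 of the normal diet lie to its lower right, with 2.92 counts of Tenm3 per count of Tenm4 on average.

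The start regions of the pair are printed because the genes differed in opposite directions. They are RefSeq windows on GRCm38.p6, the assembly that mm10 names, each from 250 bases before to 50 bases after an annotated start, written 5′ to 3′ on the gene's own strand. RefSeq places the start of Tenm3 at 48674690, inside the longer gene body given by GENCODE, and gives Tenm4 a pair of starts, at 96171244 and 96211671. Capitals mark the letters TGACGTCA, the palindrome of the cAMP response element.
Tenm3, chr8:48674641-48674940, minus strand: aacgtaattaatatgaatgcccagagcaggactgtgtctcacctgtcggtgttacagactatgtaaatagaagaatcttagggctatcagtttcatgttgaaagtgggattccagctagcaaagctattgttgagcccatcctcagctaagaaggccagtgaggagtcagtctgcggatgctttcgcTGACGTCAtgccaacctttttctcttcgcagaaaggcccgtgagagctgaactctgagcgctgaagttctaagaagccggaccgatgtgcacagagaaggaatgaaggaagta
Tenm4, chr7:96170994-96171293, plus strand: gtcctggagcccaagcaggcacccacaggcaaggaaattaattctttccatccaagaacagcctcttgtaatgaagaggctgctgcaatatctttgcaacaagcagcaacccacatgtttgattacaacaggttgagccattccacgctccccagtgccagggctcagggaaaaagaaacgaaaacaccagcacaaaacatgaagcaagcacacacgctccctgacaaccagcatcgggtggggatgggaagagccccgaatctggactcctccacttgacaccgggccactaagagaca
Tenm4, chr7:96211421-96211720, plus strand: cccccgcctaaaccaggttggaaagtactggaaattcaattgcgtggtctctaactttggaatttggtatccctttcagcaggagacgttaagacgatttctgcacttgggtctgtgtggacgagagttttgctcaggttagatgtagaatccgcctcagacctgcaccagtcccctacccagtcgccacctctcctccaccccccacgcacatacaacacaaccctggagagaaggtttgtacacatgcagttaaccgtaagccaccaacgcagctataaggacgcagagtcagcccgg
Both strands were searched for TGACGTCA, for TGATGNAA (the CARE element that C/EBP and ATF factors are known to bind), for the E-box CACGTG and for TATAAA, motifs whose letters do not contain each other. The Tenm3 window holds TGACGTCA, with its first base 63 bases before the start, and none of the other motifs. Of all 32851 RefSeq windows, 1.79% hold TGACGTCA. Neither Tenm4 window holds any of the 4 motifs, of which TGATGNAA is present in 3.97% of all windows, CACGTG in 7.15% and TATAAA in 13.6%. A match is a stretch of letters and not a measured site.

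The nearest 2 tested genes on each side of Tenm3 and of Tenm4 were read as well, a choice made after values were known, and none was called by edgeR. Dctd, 74.5 kb from Tenm3, averaged 41.3 ± 7.56 CPM on the deficient diet and 36.8 ± 2.81 CPM on the normal diet (n = 5 each, ± SD), a log2 fold change of 0.17 with SE 0.14 and an edgeR adjusted p of 0.949. Wwc2, the next gene on that side, had a log2 fold change of -0.11, while Aga and Neil3, 4668 and 4743 kb away on the other, had -0.27 and -0.50. Nars2, 40.4 kb from Tenm4, averaged 13.8 ± 2.70 CPM on the deficient diet and 12.5 ± 3.90 CPM on the normal diet (log2 fold change 0.14 with SE 0.24, edgeR adjusted p of 0.998), and Gab2 beyond it stood at -0.12. On the far side Ddias and Prcp stood at 0.32 and -0.09.

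Tenm1 and Tenm2 were near the limit of detection. Tenm1 (X chromosome, 42527866 to 43429126) had 6, 2, 6, 3 and 4 counts in arginine-deficient replicates 1 to 5, and 1, 1, 0, 2 and 0 counts in normal-diet replicates 1 to 5. In CPM the Tenm1 libraries were listed at 0.120 to 0.288 on the deficient diet and at 0 to 0.102 on the normal diet. The share of genes this low whose diets lie apart was not computed, so nothing is read from these ranges, which rest on few counts. Tenm2 (chromosome 11, 36006656 to 37235964) had 0, 3, 2, 2 and 0 counts in arginine-deficient replicates 1 to 5, and 1, 5, 4, 2 and 7 counts in normal-diet replicates 1 to 5. The diets overlapped in Tenm2. A count of 0 allows up to 3 counts, which is 0.128 and 0.252 CPM for Tenm1 in normal-diet replicates 3 and 5, and 0.0952 and 0.216 CPM for Tenm2 in arginine-deficient replicates 1 and 5. These bounds cover counting error only. Summed over the diets, Tenm1 had 21 counts on the deficient and 4 on the normal diet, and Tenm2 had 7 on the deficient and 19 on the normal diet, too few for a fold change per tumour.

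Among the latrophilins no diet difference exceeded the spread between tumours. Adgrl3 (chromosome 5, 81020138 to 81825133) had the most counts, at 87.5, 82.7, 68.5, 97.4 and 89.5 CPM in arginine-deficient replicates 1 to 5 and 85.6, 87.5, 95.7, 96.2 and 68.2 CPM in normal-diet replicates 1 to 5. A single library of each diet lay below the rest, replicate 3 on the deficient and replicate 5 on the normal diet. The means were 85.1 ± 10.7 CPM on the deficient diet and 86.6 ± 11.3 CPM on the normal diet (n = 5 each, ± SD), a log2 fold change of -0.03 with SE 0.13 and an edgeR adjusted p of 0.998. The sign turned positive when replicate 3 of the deficient diet (0.046) or replicate 3 or 4 of the normal diet (0.012 each) was left out.

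Adgrl1 (chromosome 8, 83900105 to 83941954), a latrophilin well known from brain as a receptor of spider venom latrotoxin, had 31.4, 23.0, 21.5, 31.3 and 24.4 CPM in arginine-deficient replicates 1 to 5, and 27.9, 24.1, 30.9, 27.4 and 30.5 CPM in normal-diet replicates 1 to 5. The range on the deficient diet contained that on the normal diet (log2 fold change -0.10 with SE 0.14, edgeR adjusted p of 0.998). Of its exonic bases 68.6% lie inside the bodies of other annotated genes, none of them in the table. Adgrl2 (chromosome 3, 148815583 to 148990555) had the fewest counts of the latrophilins, at 11.6 to 16.2 CPM on the deficient diet and 10.3 to 15.9 CPM on the normal diet. Its log2 fold change was -0.05 (SE 0.16, adjusted p = 0.998 by edgeR), and 0.0093 with replicate 3 of the normal diet left out.

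Flrt2 (chromosome 12, 95692226 to 95785215), the only FLRT gene with counts here, was also the most variable of the 6 on the normal diet. It had 61.2, 45.9, 89.0, 72.3 and 69.1 CPM in arginine-deficient replicates 1 to 5, and 44.0, 96.9, 76.3, 103 and 69.9 CPM in normal-diet replicates 1 to 5. Its lowest and its highest value were both on the normal diet. The coefficient of variation was 23.3% on the deficient diet and 30.1% on the normal diet, against 9.75% on the deficient and 6.98% on the normal diet for Tenm3. The log2 fold change of Flrt2 was -0.21 (SE 0.23, adjusted p = 0.976 by edgeR).

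Per kilobase of exonic length the family spanned a wide range, in an order that holds for this scale only. Flrt2 and Tenm3 led on the deficient diet, at 8.74 ± 2.04 and 8.16 ± 0.796 CPM per kb (n = 5 each, ± SD), values that overlap. On the normal diet Tenm3 had 12.4 ± 0.863 CPM per kb and Flrt2 10.1 ± 3.04 CPM per kb, which overlap as well. Next came Adgrl3, at 4.80 ± 0.603 CPM per kb on the deficient diet and 4.88 ± 0.639 on the normal diet. Tenm4, at 4.17 ± 0.907 CPM per kb on the deficient diet, overlapped both Adgrl3 and Adgrl1 there, and at 2.17 ± 0.537 on the normal diet it overlapped Adgrl1 alone. Adgrl1 had 3.06 ± 0.549 CPM per kb on the deficient diet and 3.28 ± 0.322 on the normal diet. Adgrl2 stood below these, at 0.944 ± 0.131 CPM per kb on the deficient diet and 0.973 ± 0.167 on the normal diet. Tenm1 and Tenm2 averaged 0.0107 and 0.00591 CPM per kb on the deficient diet, and 0.00229 and 0.0200 CPM per kb on the normal diet. Per kilobase of gene body, the scale that fits if introns were counted, the order was another. Flrt2 (0.726 CPM per body kb on the deficient diet, 0.839 on the normal diet) and Adgrl1 (0.629 on the deficient diet, 0.674 on the normal diet) then led, and Tenm3 (0.136 on the deficient diet, 0.205 on the normal diet) stood well below them. Tenm4, Adgrl3 and Adgrl2 ranged from 0.0663 to 0.145 CPM per body kb on the deficient diet and from 0.0399 to 0.120 on the normal diet.

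**Figure D3:**
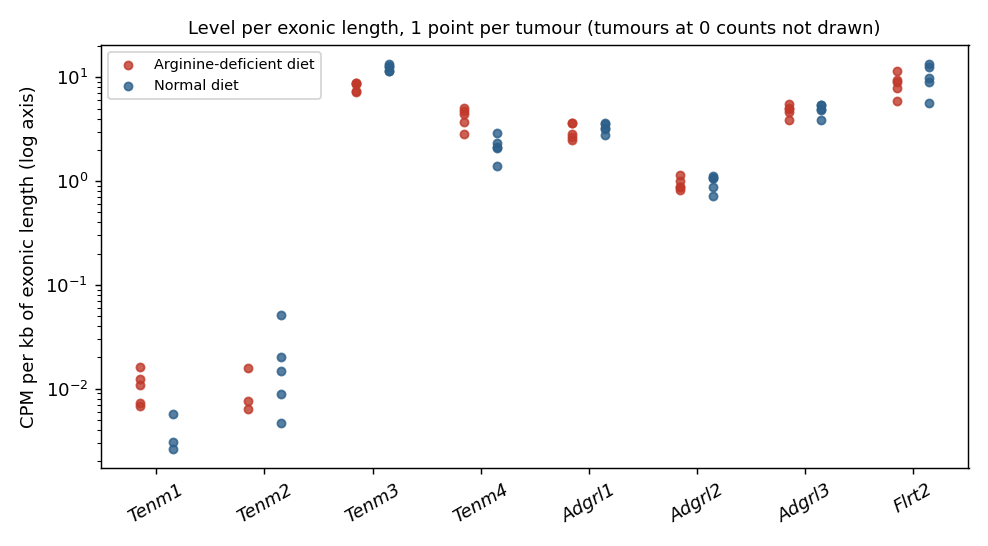
Level per kilobase of exonic length (CPM per kb, log axis) of the 8 genes with counts, 1 point per tumour, arginine-deficient diet to the left of normal diet for each gene; tumours at 0 counts are not drawn. On this scale Tenm3 and Flrt2 stand highest, Adgrl2 lowest of the tested genes at 0.944 CPM per kb on the deficient and 0.973 on the normal diet, and Tenm1 and Tenm2 far below.

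Variation among tumours of one diet is a measure that the choice of the family did not use. After the mean of each diet was removed from the log2 CPM values, all 15 pairs of the 6 tested genes were compared over the 10 tumours. Tenm3 and Adgrl3 rose and fell together, with Pearson's r of 0.82 (exact permutation within diets, two-sided p = 0.000139, Benjamini-Hochberg adjusted p = 0.00208 over 15 pairs). Spearman's rho was 0.87 (exact permutation p = 0.00299, adjusted p = 0.0448). Without the 2 tumours farthest in Tenm3, r was 0.83. Of the other 12928 tested genes, 35 had a higher r with Tenm3. Leaving out any 1 library gave r of 0.74 to 0.90, and leaving out the 3 libraries richest in muscle gave 0.71. When the trends of each library with GC content and gene length were removed from both genes, r was 0.36, so this relation moved with those library trends. Replicate 3 of the deficient diet and replicate 5 of the normal diet had the lowest Tenm3 and Adgrl3 of their diets. Their GC trends were the steepest in opposite directions, at -0.52 and 0.37 log2 per 10 points of GC. Their gene length trends were 0.016 and -0.051 log2 per doubling of length, the latter the lowest of all libraries. The GC and length trends were removed together, and the part of either was not tested. The labels name no sequencing batch within which r could be recomputed.

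**Figure D4:**
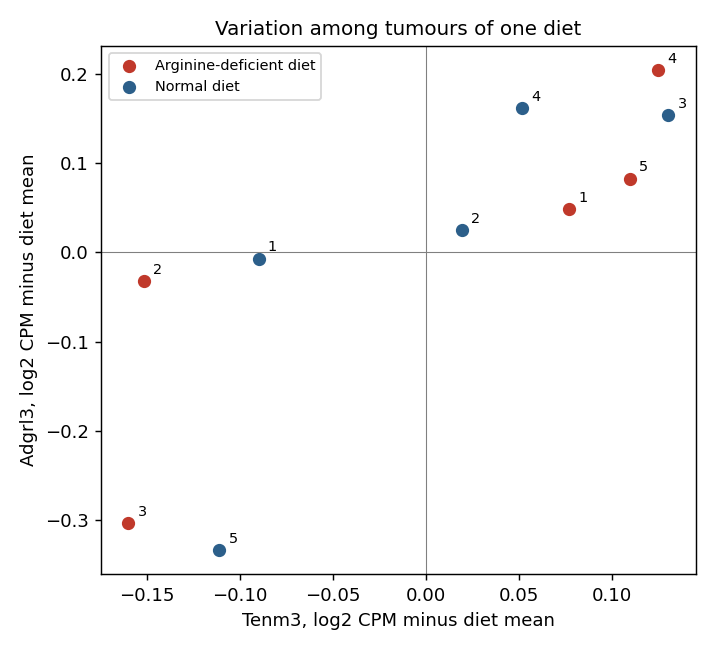
Tenm3 (horizontal axis) against Adgrl3 (vertical axis) as log2 CPM minus the mean of the tumour's diet, 1 point per tumour labelled with its replicate number. Arginine-deficient replicate 3 and normal-diet replicate 5 lie at the lower left and the tumours with most Tenm3 at the upper right, with r of 0.82 over the 10 tumours.

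The other 14 pairs did not pass, their adjusted p by exact permutation being 0.760 or more for Pearson's r. Tenm3 and Tenm4, which differed in opposite directions between the diets, had r of 0.19 (exact permutation p = 0.608) within them. Tenm4 and Adgrl3 had r of 0.02 over the 10 tumours (exact permutation p = 0.961) and -0.85 without the 2 tumours farthest in Tenm4. Leaving out the same tumours moved Tenm4 and Flrt2 from -0.02 to -0.71 but Tenm3 and Adgrl3, trimmed by Tenm3, only from 0.82 to 0.83. The r without 2 tumours was not tested for any pair, and no relation is read from it. Adgrl2 and Flrt2 had r of 0.53 (exact permutation p = 0.166).

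Among 11148 other genes of at least 2 CPM, those whose within-diet pattern was most like that of Tenm3 over the 10 tumours were Muc6 (r of 0.90), Arnt2 (0.89), Pxdn (0.88), Cacna1c (0.88) and Cemip (0.88). The middle 90% of all genes lay between r of -0.51 and 0.56 with Tenm3. Muc6 and Cemip averaged 2.42 and 2.68 CPM, little above the cut of 2 CPM. For these genes r was not recomputed with the GC and gene length trends of the libraries removed, so the part of those trends was not tested. Pxdn, peroxidasin, which crosslinks collagen IV of basement membranes, had the highest CPM of them, at 118 ± 11.8 CPM on the deficient diet and 143 ± 20.7 CPM on the normal diet (n = 5 each, ± SD), a log2 fold change of -0.27 with SE 0.12 and an edgeR adjusted p of 0.720. Muc6 encodes a secreted mucin, Cacna1c a subunit of an L-type calcium channel and Cemip a protein of hyaluronan breakdown. The log2 fold changes of Muc6, Arnt2, Cacna1c and Cemip between the diets were 0.02, 0.06, -0.10 and -0.33.

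For Tenm4 the most alike were Cdsn (r of 0.92), Cyp26b1 (0.91) and Zfp28 (0.89). Cdsn, corneodesmosin, an adhesion protein of the outer skin, averaged 42.5 ± 12.6 CPM on the deficient diet and 13.4 ± 4.84 CPM on the normal diet (n = 5 each, ± SD), a log2 fold change of 1.66 with SE 0.28 and an edgeR adjusted p of 0.0699. Cyp26b1, which breaks down retinoic acid, had 0.08 with SE 0.16 and Zfp28 -0.15 with SE 0.16 as log2 fold changes. Adgrl3 was most like Ptpra (0.94), Erc1 (0.94) and Kcnh1 (0.93), and 66.8% of the exonic bases of Kcnh1 lie inside other gene bodies. Adgrl1 was most like Galnt12 (0.92), Eci2 (0.91) and Traf3ip1 (0.90). Adgrl2 was most like Mgat4a (0.97), Slc36a4 (0.96) and Ppp1r16b (0.96). Flrt2 was most like Fmn1 (0.98), Zbtb37 (0.97) and Rnf144a (0.97). High r was common for Adgrl2 and Flrt2, the middle 90% of all genes running from -0.86 to 0.85 with Adgrl2 and from -0.76 to 0.75 with Flrt2. The same range was -0.61 to 0.61 for Tenm4, -0.71 to 0.63 for Adgrl1 and -0.61 to 0.60 for Adgrl3. For these lists too, r was not recomputed with the GC and gene length trends removed.

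The other cell-surface partners of the family, among them UNC5 receptors, Dag1 and Fgfr1, were described from a list of 15 genes, of which 11 were tested. None of the 11 was called by edgeR (0.0541% of all genes) and none had an unadjusted p under 0.05 (6.74% of all genes). Of the values 10 were negative and 1 positive, with a median log2 fold change of -0.09 against 0.00 over all genes. Each of the 10 negative values lay within 1 SE of 0. Dag1, dystroglycan, a matrix receptor that binds teneurins, had the highest CPM at 187 ± 13.0 CPM on the deficient diet and 194 ± 10.2 CPM on the normal diet (n = 5 each, ± SD), a log2 fold change of -0.05 with SE 0.09 and an edgeR adjusted p of 0.998. Fgfr1, a growth factor receptor that FLRT proteins bind, averaged 141 ± 39.5 CPM on the deficient diet and 160 ± 37.2 CPM on the normal diet (log2 fold change -0.18, SE 0.21). Unc5b, the UNC5 receptor with most counts here, averaged 109 CPM on the deficient diet and 116 CPM on the normal diet (log2 fold change -0.09, SE 0.20). Unc5a averaged 0.588 CPM on the deficient diet and 0.602 CPM on the normal diet. Adgrl4, a relative of the latrophilins known from blood vessels, and Cntn6, a contactin, had values of -0.27 and -0.20 on the same scale, with SE of 0.29 and 0.36. Leaving out replicate 3 of the deficient diet moved Adgrl4 to -0.62 (SE 0.21, edgeR adjusted p of 0.319).

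Of 14 partners inside the cell or in processing, 13 were tested and 0 called by edgeR, against 0.0541% of all genes. The log2 fold change was positive in 8 and negative in 5, with a median of 0.08 against 0.00 over all genes. Against 6.74% of all genes, 1 of the 13 had an unadjusted p under 0.05. That gene was Shank2, a scaffold protein that latrophilins bind, at 0.371 ± 0.250 CPM on the deficient diet and 0.804 ± 0.448 CPM on the normal diet (n = 5 each, ± SD), a log2 fold change of -1.15 with SE 0.49 and an edgeR adjusted p of 0.689. Shank1 had a log2 fold change of 0.42 (SE 0.25). Furin, the protease that cleaves many surface proteins on their way out, averaged 185 ± 60.2 CPM on the deficient diet and 162 ± 42.6 CPM on the normal diet (log2 fold change 0.20, SE 0.25). Rhoa, the small GTPase at the end of the G12 and G13 pathway, averaged 418 ± 32.3 CPM on the deficient diet and 378 ± 25.6 CPM on the normal diet (log2 fold change 0.14, SE 0.10). Ptk2, focal adhesion kinase, had 0.12 (SE 0.10). Rnd1, a GTPase known in Xenopus to act with FLRT3, had 0.50 by edgeR (SE 0.31, adjusted p of 0.884) and 0.92 by limma voom (SE 0.23, adjusted p of 0.0493). Limma voom called 2.88% of all genes, and it was the only 1 of 19 alternatives in which Rnd1 passed. By DESeq2 the adjusted p of Rnd1 was 0.794.

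**Figure D5:**
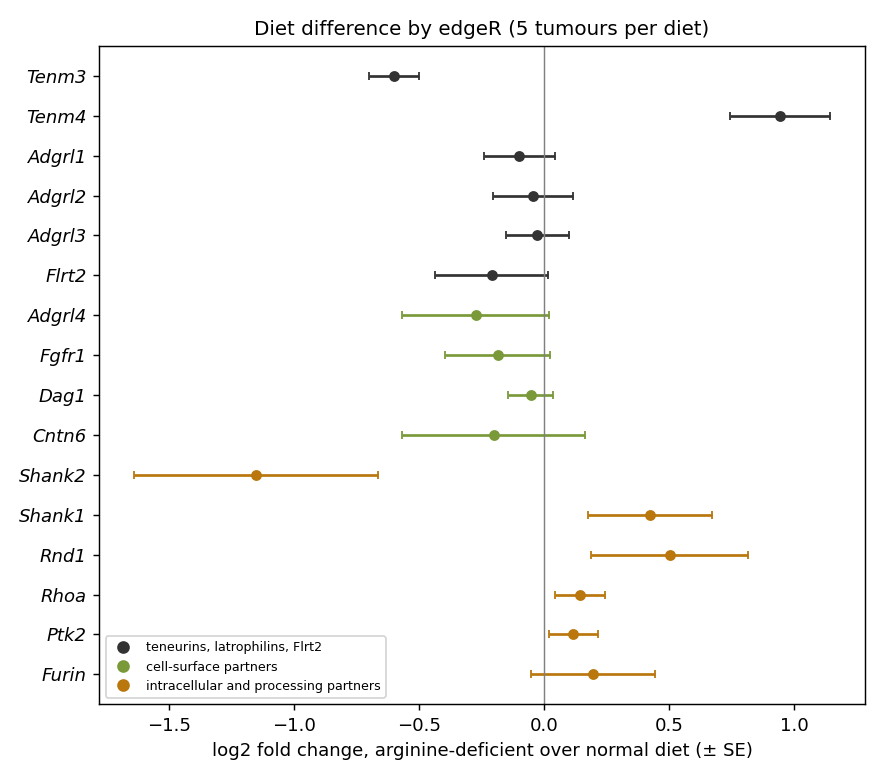
Log2 fold change of arginine-deficient over normal diet (horizontal axis, bars ± SE, 5 tumours per diet) for the 6 tested genes of the family, 4 cell-surface partners and 6 partners inside the cell. Tenm3 at -0.60 and Tenm4 at 0.94 lie furthest from 0 relative to their bars, and the latrophilins lie within 1 SE of 0.

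Markers of other cell types that a tumour can hold were read in the same libraries. The 11 fibroblast markers, all tested and none called, summed to 2493 to 4178 CPM on the deficient diet and 2891 to 3694 CPM on the normal diet. Of the 9 endothelial markers 2 were higher and 7 lower, none called, with sums of 175 to 228 CPM on the deficient diet and 192 to 240 CPM on the normal diet. The 6 Schwann cell markers summed to 4.91 to 9.14 CPM on the deficient diet and 3.79 to 8.99 CPM on the normal diet, and the 6 neuronal markers, with Nefl listed at 0, to 6.13 to 14.2 CPM on the deficient diet and 9.35 to 15.7 CPM on the normal diet. The 6 markers of pericytes and smooth muscle summed to 38.6 to 339 CPM on the deficient diet and 51.4 to 98.3 CPM on the normal diet. The 6 macrophage markers, with Itgam listed at 0, summed to 1129 to 1296 CPM on the deficient diet and 852 to 1185 CPM on the normal diet, and the 6 T cell markers to 27.4 to 52.8 CPM on the deficient diet and 11.02 to 51.9 CPM on the normal diet. The 5 erythrocyte markers, with Alas2 listed at 0, had 4 tested members, all with a negative log2 fold change, and summed to 56.2 to 106 CPM on the deficient diet and 101 to 602 CPM on the normal diet. In each of these lists the ranges of the diets overlapped, and no marker was called by edgeR. The 10 skeletal muscle markers, with Acta1 listed at 0, ranged from 1.84 to 5901 CPM on the deficient diet and from 1.85 to 530 CPM on the normal diet. The 6 of them that were tested were all higher on the deficient diet, with 0 called. The 5 keratinocyte markers summed to 2.855 to 4.326 CPM on the deficient diet and 2.682 to 3.28 CPM on the normal diet. The 4 adipocyte markers, 3 tested and all 3 lower, summed to 29.7 to 52.3 CPM on the deficient diet and 40.8 to 60.5 CPM on the normal diet. The part of these cell types in the values of Tenm3 and Tenm4 was not tested. Without the 3 libraries richest in muscle the log2 fold changes were -0.57 for Tenm3 and 1.13 for Tenm4, against -0.60 and 0.94 with all 10 libraries.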

How the data were processed

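The authors deposited raw read counts per gene, 1 column per library, matched here to the samples by the number in each description; the titles say Arg or Control, taken as deficient and normal diet because the design text names those. FastQC, STAR and featureCounts on mm10 are named, per the submitters' processing notes, without versions; no strand or counting setting was found in the labels. Symbols, positions and exonic lengths came from GENCODE M21 (21379 of 21849 identifiers matched with their version and 437 with another; 33 had no symbol).

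edgeR 4.0.16 in R 4.3.3 ran the quasi-likelihood F test with TMM factors, filterByExpr defaults and diet as the only term on 12929 genes holding 99.9% of counts. Each SE is the size of the log2 fold change divided by the root of its F. DESeq2 1.42.0, limma 3.58.1 voom, other size factors and filters, a replicate block, covariates and each library left out in turn were alternatives. In simulations on those 12929 genes the edgeR step found 12.9% of changes of 1.5-fold, 65.2% at 2-fold and 98.5% at 4-fold, with 21 false calls in 3 runs. No 2 libraries agreed within sampling noise. The biological coefficient of variation was 26.5%.

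The members, gene lists and alternatives were chosen with earlier results of these data known. Named genes were all 10 members; from each partner list the 5 with the smallest p and the 2 with the highest level; and the 5 genes most like Tenm3 and 3 most like each other member of at least 5 CPM (Pearson's r of log2 CPM with a prior count of 2, diet means removed, among tested genes of at least 2 CPM that are no predicted models, pseudogenes or members). Unc5a, Unc5b and the neighbouring genes were added after their values were seen. The result for 1 gene of the cell-surface list that the rule named is not reported here.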

Additional observations from a re-analysis of the deposited data

Results flagged for a closer look

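Among 36 groups of 5 libraries examined, over the 6 tested members, the named partner genes and the ratio of Tenm3 to Tenm4, 3 held a library far from the other 4. Chance gives about 1 in 20 such groups. None of the 3 is a teneurin, a latrophilin of the family or Flrt2. Adgrl4 was 18.1 CPM in arginine-deficient replicate 3, against 6.47 to 9.24 CPM in the other libraries of that diet. Cntn6 was 7.24 CPM in the same library, against 2.79 to 3.66 CPM in the others. Shank2 was 1.60 CPM in normal-diet replicate 5, against 0.554 to 0.715 CPM in the other normal-diet libraries.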

How the results depend on the processing

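Over 19 alternatives the log2 fold change of Tenm3 stayed between -0.63 and -0.56 and that of Tenm4 between 0.82 and 1.13, with adjusted p from 8.95e-06 to 0.518 and from 0.00388 to 0.518. Both passed with DESeq2 (-0.60 and 0.94), limma voom (-0.62 and 1.01) and the GC and length covariates (-0.58 and 0.94), and in no other fit. The number of genes called over all genes was 127, 373 and 68 in those fits, 18 without the 3 libraries richest in muscle and 0 to 16 when 1 library was left out. The cause was not tested. With the replicate block 1 gene was called, and Tenm3 (-0.60) and Tenm4 (0.95) had an edgeR adjusted p of 0.518. The deviations of same-numbered libraries from their diet means had r from -0.35 to 0.18. Whether the numbers pair samples cannot be told from these values. Adgrl3 ran from -0.10 to 0.0463 when 1 library was left out and was 0.0427 without the 3 muscle-rich libraries. Adgrl2 ran from -0.13 to 0.0093, Cntn6 from -0.52 to 0.10 and Adgrl4 from -0.62 to -0.15 when 1 library was left out, and Adgrl4 was -0.65 without the 3 muscle-rich libraries. Of 207 values of partner genes under alternatives, 205 kept direction and side of the threshold. The r of Arnt2 with Tenm3 ran from 0.87 to 0.96 when 1 library was left out. The r of Tenm3 with Adgrl3, by alternatives chosen after seeing the data, ran from 0.74 to 0.90 when 1 library was left out and was 0.36 with the GC and length trends removed. Levels under about 1 CPM rest on few counts.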

Other observations

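Unc5d, an UNC5 receptor that FLRT proteins bind, had 0, 0, 9, 3 and 6 counts in arginine-deficient replicates 1 to 5 and 0 counts in each normal-diet library. It was too low to be tested and was picked out after its counts were seen. Of the 12 RefSeq start windows found for 9 of the 10 genes, the Tenm1 window alone holds TGATGNAA, the Flrt2 window alone holds the E-box CACGTG, and TATAAA is found in windows of Adgrl2, Adgrl3 and Tenm1, against 13.6% of all windows.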
